A study of Mus musculus with 12 samples.

Results

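The genes described here are the 10 genes of the MYC and MAX network: the 3 MYC genes Myc, Mycn and Mycl, their shared partner Max, the MAX-binding antagonists Mxd1, Mxi1, Mxd3, Mxd4 and Mnt, and the MAX-binding gene Mga. They were chosen by name, from what is known of the network, with earlier results of these data known. All 10 were found in both the count table and the TPM table of each day, which hold 43309 features at day 5 and 42802 at day 9. All 10 also passed the filter on low counts at both days.

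The cells were mouse neural progenitor cells of strain C57BL/6, which divide in culture and can form neurons and glia, kept in medium with EGF and FGF-2 at 10 ng/ml each. The question was which RNAs differ once lamin B1, a protein of the nuclear lamina, is lost. The 12 libraries form 4 groups of 3. The cKO groups hold cells with a floxed lamin B1 gene at 5 and 9 days after a Cre lentivirus, and the WT groups hold LaminB1+/+ cells at the same days after the same virus. Cre was driven by a Sox2 promoter in every group, so recombination was limited to cells in which that promoter was active. Every group carried the Ai3 reporter, which makes EYFP after Cre has acted, and RNA came from EYFP+ cells taken by sorting. WT cells therefore also expressed Cre and the reporter. The labels do not say whether the replicates were separate cultures or animals, so the p-values measure the spread between these libraries, which may be technical.

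MYC proteins bind DNA as pairs with MAX, at the E-box CACGTG and its variants, and raise genes for ribosome production, metabolism and division. The MXD proteins, MXI1 and MNT pair with the same MAX, bind the same E-box and recruit SIN3 and histone deacetylases, which lower transcription there. In neural tissue Mycn and Myc are known for keeping progenitors dividing, while Mxd1, Mxi1 and Mxd4 are known from cells that leave division and differentiate, and Mxd3 from cells in S phase.

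Library totals ran from 26720476 to 28540036 counts in cKO and from 29460342 to 32127629 in WT at day 5. At day 9 they ran from 13315273 to 22988447 counts in cKO and from 24412935 to 24662809 in WT. Lmnb1, the targeted gene, was at 37.8, 40.7 and 45.04 CPM in cKO and 247.4 to 288.3 CPM in WT at day 5, and at 32.8 to 39.4 CPM in cKO and 155.7 to 209.7 CPM in WT at day 9 (CPM, counts scaled by library size with TMM factors). Some libraries stood apart. A group of 12 features is called structural RNA here. It includes Gm42418, which held most of its counts, the gene Lars2 and small noncoding RNAs. The group took 72.5% and 71.2% of counts in cKO replicates 1 and 3 of day 9, 0.362% in cKO replicate 2, and 15.9% to 34.9% in WT. In TPM it took 71.8% of cKO replicate 1 of day 9, with Gm42418 at 35.7%. At day 5 the group took 14.2% in cKO replicate 2 and 0.0745% to 0.509% in the other libraries. Across genes, the deviations of cKO replicate 2 from its group mean at day 5 ran with those of WT replicate 1 (correlation 0.757). Of the progenitor markers Nes was present at 77.1 ± 10.6 CPM in cKO and 302.2 ± 51.2 CPM in WT at day 9, and Sox2 at 260.9 ± 21.1 CPM in cKO and 247.9 ± 30.1 CPM in WT (mean ± SD, n = 3). These are bulk samples, so fewer cells that express a gene and less of its RNA per cell cannot be told apart.

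The sequence before the start of 9 of the 10 genes was in the RefSeq promoter table (build GRCm38.p6). The 250 bases before the start were searched on both strands for the E-box CACGTG, which reads the same on both strands, and for the E2F-type motifs TTTGGCGC (GCGCCAAA on the other strand) and TTTCCCGC (GCGGGAAA). CACGTG stood in 6.02% of the 32851 promoters of this length, and among the network genes in those of Mxd4 and Mnt. TTTGGCGC stood in 0.417% of all promoters, and among the network genes in that of Mycn, at 183 to 176 and again at 168 to 161 bases before the start. TTTCCCGC stood in 0.895% of all promoters and in none of the 9 genes. A match is only a match of letters, and variants that differ by a base were not searched. Shown here in gene orientation are the Mycn, Mxd4 and Mnt promoters, for their motif matches in capitals, and that of Mxd3, the network gene with the largest fall, which holds none of the motifs. Each stretch ends before the first annotated transcript start and so stops short of the RefSeq start. They cover Mycn at chr12:12941915-12942086 (minus strand), Mxd3 at chr13:55329824-55329981 (minus strand), Mxd4 at chr5:34187721-34187960 (minus strand) and Mnt at chr11:74830674-74830919 (plus strand).
Mycn: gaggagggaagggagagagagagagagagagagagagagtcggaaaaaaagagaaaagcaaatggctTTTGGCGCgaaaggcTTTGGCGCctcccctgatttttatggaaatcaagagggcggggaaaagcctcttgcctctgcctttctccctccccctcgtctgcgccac
Mxd3: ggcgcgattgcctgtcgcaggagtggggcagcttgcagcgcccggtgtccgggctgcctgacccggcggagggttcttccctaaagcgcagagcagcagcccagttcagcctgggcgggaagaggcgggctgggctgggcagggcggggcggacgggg
Mxd4: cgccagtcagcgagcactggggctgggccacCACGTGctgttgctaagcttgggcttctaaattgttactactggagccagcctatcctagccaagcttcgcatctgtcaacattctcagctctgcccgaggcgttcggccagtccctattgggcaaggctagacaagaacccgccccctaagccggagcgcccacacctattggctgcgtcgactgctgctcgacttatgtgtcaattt
Mnt: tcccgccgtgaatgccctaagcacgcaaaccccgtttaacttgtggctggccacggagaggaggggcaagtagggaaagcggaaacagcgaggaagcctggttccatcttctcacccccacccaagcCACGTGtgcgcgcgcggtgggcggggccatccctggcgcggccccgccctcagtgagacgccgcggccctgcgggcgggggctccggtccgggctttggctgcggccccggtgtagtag

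The first comparison asks what the loss of lamin B1 did to the network 5 days after the virus. No network gene passed the test at day 5: 0 of 10, against 0.00673% of all 14849 tested genes (quasi-likelihood test of edgeR with Benjamini-Hochberg adjustment, adjusted p of 0.9999 for each of the 10). The threshold on adjusted p was 0.05 in every test. The 1 gene called at day 5 was Lmnb1 itself, 6.40-fold lower in cKO (edgeR's Benjamini-Hochberg adjusted p = 0.0493). A change of that size only just passed, so a count of 0 does not show that the network was unchanged. At an unadjusted p below 0.05, 0.599% of all genes and none of the network genes passed. The log2 fold changes of the 10 genes, cKO over WT, lay between -0.43 and 0.31 with a median of -0.04, against a median of 0.01 over all tested genes.

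Myc (chromosome 15, 61985391 to 61990374, plus strand, GRCm38, 3 exons), the broadly used MYC gene, was at 121.5, 124.8 and 138.6 CPM in cKO and at 139.9, 124.1 and 119 CPM in WT at day 5. The groups overlapped fully. Mycn (chromosome 12, 12936093 to 12941914, minus strand, 3 exons), the N-MYC gene of embryonic neural progenitors, was at 2.48, 2.40 and 2.78 CPM in cKO and at 2.37, 1.73 and 2.07 CPM in WT. All 3 cKO libraries lay above the WT libraries by a narrow margin, and Mycn was the only network gene of the 10 whose groups did not overlap at day 5, against 2.85% of all tested genes (1.5% higher and 1.35% lower in cKO). Mycl (chromosome 4, 122995652 to 123002485, plus strand, 3 exons), the L-MYC gene, was at 24.1, 14.6 and 20.6 CPM in cKO and at 20.96, 32.1 and 26.7 CPM in WT.

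Mxd3, Mxd4 and Mga spread widely within each group at day 5. Mxd3 was at 86.4, 34.1 and 59.9 CPM in cKO and at 38.1, 80.1 and 68.2 CPM in WT, with the lowest values in cKO replicate 2 and WT replicate 1, the pair of libraries that stood apart. Mxd4 was at 256.3, 153.5 and 222.3 CPM in cKO and at 178.8, 274.1 and 260.1 CPM in WT, low in the same pair. Mga ran the other way, with 18.8, 108.9 and 14.6 CPM in cKO and 75.5, 23 and 17.1 CPM in WT, so that its 2 high values were again cKO replicate 2 and WT replicate 1. Mxd1, Mxi1, Mnt and Max differed by -0.15 to 0.05 on the log2 scale, with standard errors of 0.21 to 0.26. Without cKO replicate 2 and WT replicate 1 together, the network genes called at day 5 stayed at 0.

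**Figure D1:**
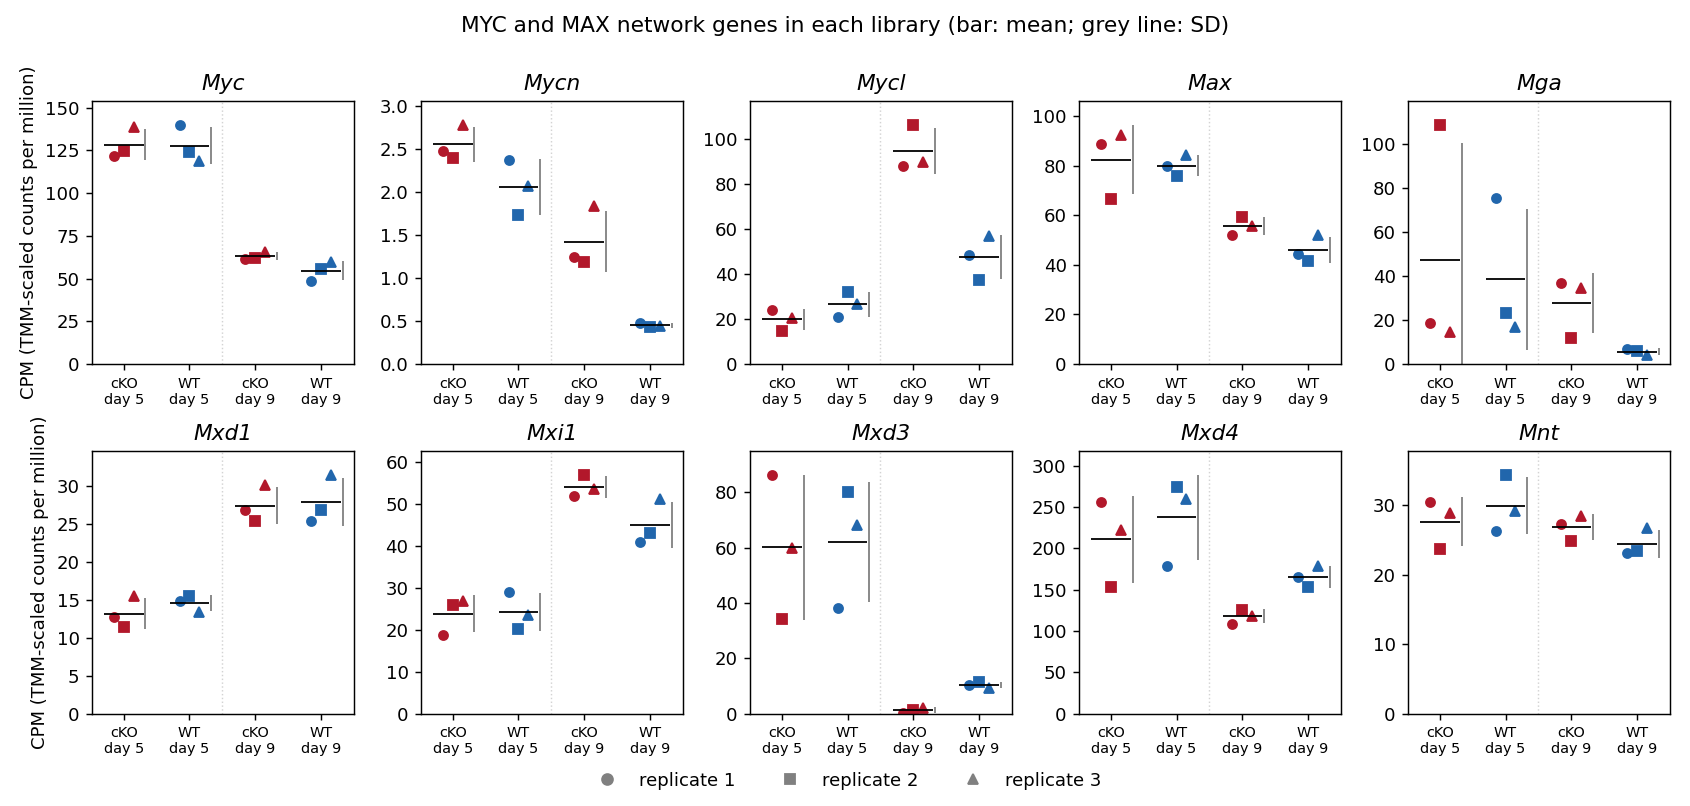
TMM-scaled CPM of each network gene (y axis from 0, its own scale per gene) in the 12 libraries, by genotype and day; points are libraries, black bars group means and grey lines the SD (n = 3), drawn no lower than 0. At day 9 the cKO points of Mycn, Mycl and Mga lie above the WT points and those of Mxd3 and Mxd4 below them, while at day 5 the groups of all but Mycn overlap.

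The second comparison asks the same question 9 days after the virus. Of the 10 network genes 5 passed the test at day 9, against 43.6% of all 14617 tested genes, so the share called was close to that of all genes. Mycn, Mycl and Mga rose, 3 of 10 against 21.0% of all genes called higher, and Mxd3 and Mxd4 fell, 2 of 10 against 22.6% called lower. At an unadjusted p below 0.05, 7 of the 10 passed at day 9, against 54.2% of all genes. The CPM ranges of the groups did not overlap for 8 of the 10 genes, against 57.8% of all tested genes. Of these 8 the 6 higher in cKO were Myc, Mycn, Mycl, Max, Mxi1 and Mga, against 27.6% of all genes, and the 2 lower were Mxd3 and Mxd4, against 30.2%. The median log2 fold change of the 10 genes was 0.24, against 0.01 over all tested genes, whose middle 50% lay between -0.44 and 0.65.

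Among the MYC genes, Mycl carried the clearest rise. It was at 88.1, 106.1 and 89.5 CPM in cKO and at 48.3, 37.5 and 56.6 CPM in WT at day 9. The lowest cKO library lay well above the highest WT library. Mycl was 1.99-fold higher in cKO (log2 fold change 0.996 ± 0.16 SE over 3 libraries each; edgeR's Benjamini-Hochberg adjusted p = 0.0021). On limma's log2(TPM + 1) scale with structural RNA left out of the total, the call ended (log2 difference 0.75, limma's adjusted p = 0.0732). Over the 16 alternatives the adjusted p of Mycl (edgeR, limma or DESeq2) ran from 1.24e-06 to 0.985, the highest on the deposited TPM.

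Mycn rose 3.07-fold at day 9 but was very low in both groups, at 1.25, 1.18 and 1.83 CPM in cKO and 0.480, 0.430 and 0.436 CPM in WT (log2 fold change 1.62 ± 0.37 SE over 3 libraries each; edgeR's Benjamini-Hochberg adjusted p = 0.0106). These levels rest on 8, 47 and 13 expected counts in cKO and 17, 12 and 15 in WT, which limits the precision of the fold. Every cKO library was still above every WT library. On log2(TPM + 1) of the deposited TPM the log2 difference of Mycn was 0.24 and the call ended (limma's adjusted p = 0.56; 0.00641 to 0.665 over the 16 alternatives).

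Myc itself was at 61.6, 62.2 and 65.7 CPM in cKO and at 48.5, 55.7 and 59.8 CPM in WT at day 9. The cKO libraries lay just above the WT libraries, but the difference did not pass (log2 fold change 0.21 ± 0.10 SE; edgeR's Benjamini-Hochberg adjusted p = 0.137). Max (chromosome 12, 76937269 to 76962201, minus strand), the shared partner of the network, was at 52.2, 59.2 and 55.7 CPM in cKO and at 44.6, 41.7 and 52.1 CPM in WT. The lowest cKO library and the highest WT library nearly met, and Max did not pass either (log2 fold change 0.28 ± 0.12 SE; edgeR's Benjamini-Hochberg adjusted p = 0.0834).

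Mga (chromosome 2, 119897228 to 119969581, plus strand, 25 exons) encodes a large protein with a T-box and a MAX-binding domain that belongs to the repressive complex PRC1.6. It was at 36.95, 11.9 and 34.6 CPM in cKO and at 7.04, 5.99 and 3.90 CPM in WT at day 9. All cKO libraries were above WT, with replicates 1 and 3 well above replicate 2. Mga was 4.85-fold higher in cKO (log2 fold change 2.28 ± 0.49 SE over 3 libraries each; edgeR's Benjamini-Hochberg adjusted p = 0.0147). The same cKO replicates 1 and 3 held 72.5% and 71.2% of their counts in structural RNA and replicate 2 held 0.362%; the part of this in the Mga result was not tested. Without cKO replicates 1 and 3 together the log2 fold change of Mga was 1.04 and the call ended (edgeR adjusted p = 0.0662, Benjamini-Hochberg), and it also ended without WT replicate 2 (adjusted p = 0.051) or without WT replicate 3 (adjusted p = 0.0617). Over the 16 alternatives the adjusted p of Mga (edgeR, limma or DESeq2) ran from 9.05e-08 to 0.494.

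Among the antagonists, Mxd3 had the largest fall of the network. Mxd3 (chromosome 13, 55325168 to 55329823, minus strand, 6 exons), the MXD gene known from S phase, was at 0.156, 1.36 and 2.11 CPM in cKO and at 10.3, 11.4 and 9.13 CPM in WT at day 9. Every cKO library lay far below every WT library. The level was 8.13-fold lower in cKO (log2 fold change -3.02 ± 0.51 SE over 3 libraries each; edgeR's Benjamini-Hochberg adjusted p = 0.00454). The cKO values rest on 1.04, 54.4 and 15.5 expected counts, against 365.9, 318.4 and 314.5 in WT, and the direction and the call of Mxd3 held under all 16 alternatives run at day 9. Beside it, the summed level of 12 proliferation markers at day 9 was 122.2 to 152.3 CPM in cKO and 674.7 to 916.9 CPM in WT. Of these markers 11 were called lower, against 22.6% of all genes, and Mki67 was not called. Their part in the Mxd3 result was not tested.

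Mxd4 (chromosome 5, 34173883 to 34187720, minus strand, 6 exons), the most abundant MXD gene in these cells, was at 108.8, 125.7 and 118.1 CPM in cKO and at 164.8, 152.6 and 178.4 CPM in WT at day 9. The groups were clearly apart. Mxd4 was 1.41-fold lower in cKO (log2 fold change -0.49 ± 0.11 SE over 3 libraries each; edgeR's Benjamini-Hochberg adjusted p = 0.00858). Without cKO replicates 1 and 3 together the log2 fold change of Mxd4 was -0.43 and the call ended (edgeR's Benjamini-Hochberg adjusted p = 0.095), as it did on rescaled log2(TPM + 1) (-0.76, limma's adjusted p = 0.0785; 0.000157 to 0.478 over the 16 alternatives).

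The other 3 antagonists did not pass at day 9. Mxd1 (chromosome 6, 86647042 to 86669161, minus strand), the MXD gene first known from differentiating cells, was at 26.8, 25.4 and 30.1 CPM in cKO and at 25.4, 26.9 and 31.6 CPM in WT (edgeR's Benjamini-Hochberg adjusted p = 0.876). Mxi1 (chromosome 19, 53310518 to 53375810, plus strand) was at 51.9, 57.1 and 53.6 CPM in cKO and at 40.9, 43.03 and 51.2 CPM in WT (edgeR's Benjamini-Hochberg adjusted p = 0.0884). Mnt (chromosome 11, 74830920 to 74845725, plus strand), the antagonist that most dividing cells also make, was at 27.3, 24.8 and 28.4 CPM in cKO and at 23.1, 23.4 and 26.7 CPM in WT (edgeR's Benjamini-Hochberg adjusted p = 0.389). Mxd1 and Mnt overlapped between groups, and Mxi1 was slightly higher in every cKO library.

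The counting of strand is not given in the sources used here, so reads from a network gene and from a gene that overlaps it on the other strand cannot be told apart. In the annotation Mxd3 overlaps the end of Prelid1, Mxd4 overlaps an antisense transcript, and Mxi1 overlaps unnamed predicted genes. Max and Mxd1 hold small predicted features on their own strand. No such neighbour was noted for Myc, Mycn, Mycl, Mnt and Mga, which does not exclude one.

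**Figure D2:**
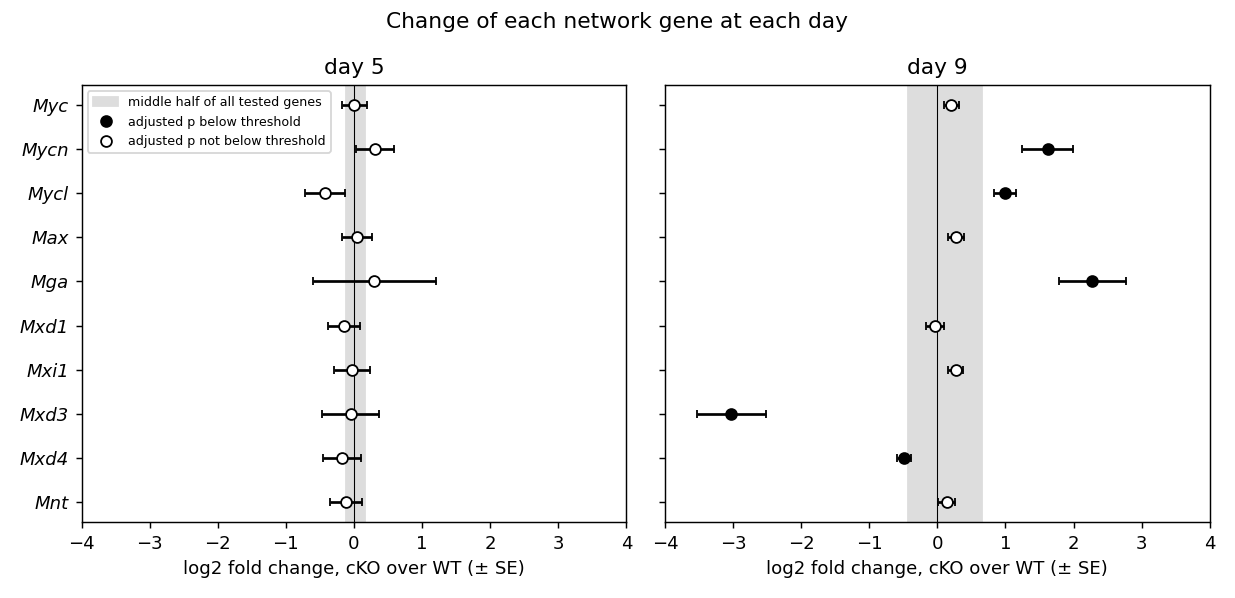
Log2 fold change of each network gene, cKO over WT (x axis), at day 5 and at day 9; points are edgeR estimates from 3 against 3 libraries, whiskers the standard error, filled points passed the test and the grey band is the middle 50% of all tested genes. At day 9 Mycn, Mycl and Mga lie right of the band and Mxd3 far left of it, and Mxd4 lies just past its left edge at -0.49.

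The scaling of the libraries bears on these directions. On the deposited TPM, whose totals include structural RNA, the median log2 difference of all tested genes at day 9 was -0.79 with log2(TPM + 1) and -1.02 with log2(TPM + 0.1), so the Mycl difference read -0.03 and -0.04 there and Mxd3 was the only network gene of the 10 still called. On rescaled TPM the median of all genes was -0.22, and Mycn, Mga and Mxd3 were called. With each library of rescaled TPM centred on its median, an alternative chosen after seeing the data, 5 network genes were called, among them Mycl (0.91, limma's adjusted p = 0.00447) and Mxd4 (-0.60, adjusted p = 0.0112). Relative to the median of all genes, Mycl was higher in cKO by 0.61 to 1.16 over the 17 settings run, Mycn by 0.81 to 1.77 and Mga by 1.07 to 2.67. Mxd3 stood at -3.42 to -2.27 relative to that median, and Mxd4 at -0.88 to -0.40. Myc, Mnt and Mxd1 each took both signs relative to it. Max and Mxi1 were below it only with DESeq2 (-0.11 and -0.12), whose median of 0.35 is over 25059 unfiltered genes and not the 14617 of the edgeR fit.

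The balance of MYC genes against their antagonists was read within each library, as the summed TPM of Myc, Mycn and Mycl over the summed TPM of Mxd1, Mxi1, Mxd3, Mxd4 and Mnt. TPM was rescaled after structural RNA was left out, and a ratio within a library does not depend on that share. At day 9 the ratio was 1.23, 1.16 and 1.07 in cKO and 0.578, 0.595 and 0.636 in WT. The groups did not overlap. The side of 1 on which a ratio lies depends on the scaling for length, since summed expected counts gave 0.702, 0.723 and 0.676 in cKO and 0.368, 0.364 and 0.394 in WT, again with no overlap. The log2 ratio was higher in cKO by 0.93, against an SD within groups of 0.0888, and it lay between 0.88 and 0.99 when any 1 library was left out. With Mxd3 left out of the antagonists the log2 difference was 0.79. At day 5 the ratio was 0.488, 0.924 and 0.685 in cKO and 0.916, 0.512 and 0.532 in WT, with full overlap, a log2 difference of 0.10 and an SD within groups of 0.465. The highest ratio of each group at day 5 was again in cKO replicate 2 and WT replicate 1.

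The makeup of each side also differed at day 9. Mycl made up 43.8%, 48.4% and 42.2% of MYC TPM in cKO and 35.4%, 27.3% and 34% in WT, while Myc made up 55.4%, 50.9% and 56.7% in cKO and 64%, 72.3% and 65.6% in WT. The Mycl share was higher, and the Myc share lower, in every cKO library than in any WT library. A share depends on the other genes of the sum, and Myc itself was not lower in cKO. Its CPM was 61.6, 62.2 and 65.7 in cKO and 48.5, 55.7 and 59.8 in WT. At day 5 Mycl was 6.04% to 9.97% of MYC TPM in cKO and 7.48% to 12.3% in WT. Mycn never exceeded 1.34% of MYC TPM in any library of either day.

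On the antagonist side, Mxd3 held 0.264%, 1.80% and 2.66% of the antagonist TPM in cKO and 11.2%, 12.6% and 8.82% in WT at day 9. Mxd4 stayed the main antagonist, with 55.7%, 57.7% and 53.1% in cKO and 62.5%, 57.7% and 60.9% in WT. The shares of Mxi1 (17.9% to 20.3% in cKO, 11.4% to 12.8% in WT), Mnt (11.1% to 15.6% in cKO, 7.16% to 9.22% in WT) and Mxd1 (9.66% to 11.4% in cKO, 7.75% to 8.70% in WT) were higher in every cKO library. A share rises when other genes of the sum fall, and none of these genes passed the test itself. Mxd1 was at 13.6 rescaled TPM in cKO and 16.5 in WT on average. At day 5 Mxd3 had held 32.5% to 44.2% in cKO and 31.7% to 40.7% in WT. Max RNA stood at 0.236, 0.248 and 0.230 of the summed RNA of the 3 MYC genes and 5 antagonists in cKO and 0.205, 0.193 and 0.208 in WT at day 9, so Max was the smaller pool in every library of that day.

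**Figure D3:**
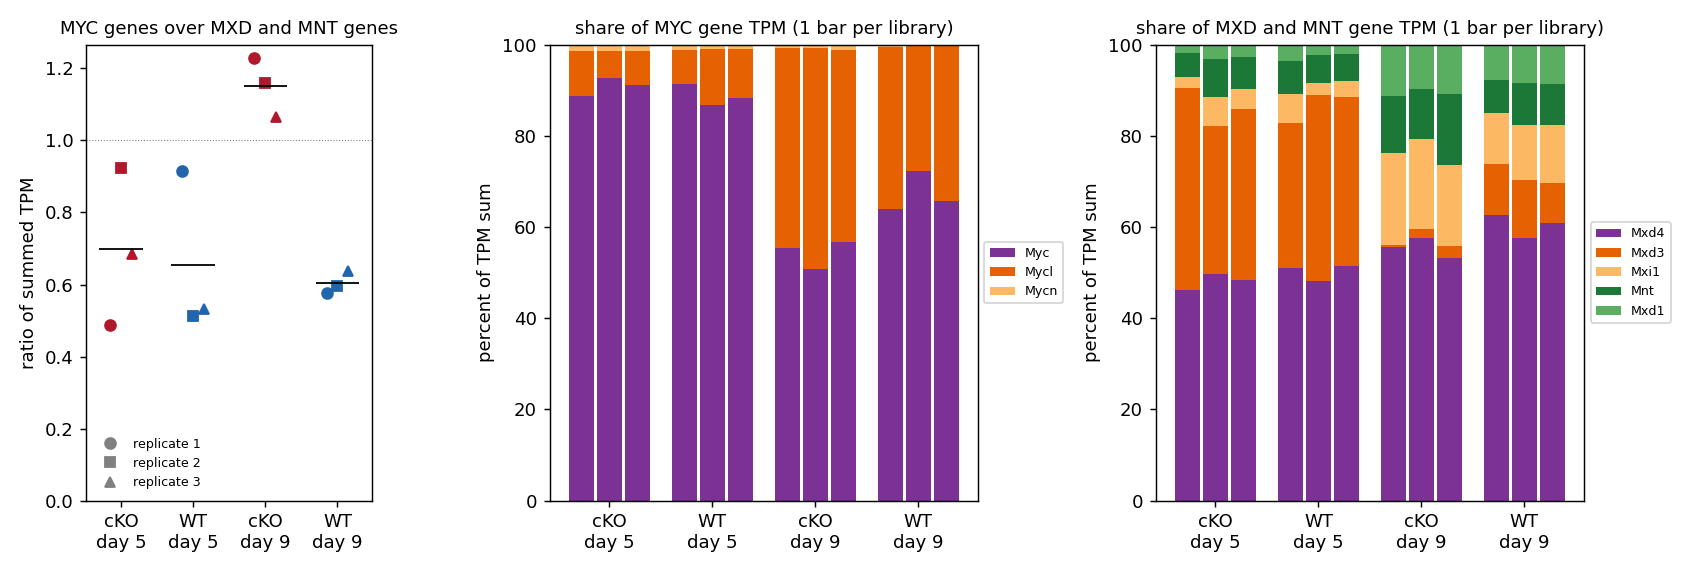
Left, ratio of summed MYC TPM to summed MXD and MNT TPM (y axis from 0) in each library by genotype and day, with black bars for means and a dotted line at 1; middle and right, the percent of each sum held by each gene, 1 bar per library. At day 9 the cKO ratios (1.07 to 1.23) all lie above 1 and the WT ratios (0.578 to 0.636) below it, Mycl takes a larger share of MYC RNA in cKO and Mxd3 is nearly absent from the antagonist sum.

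The levels of the 10 genes were ordered within each group in rescaled TPM, which accounts for transcript length. In cKO cells of day 9, Myc (80.6 ± 20.8), Mxd4 (72.9 ± 25.6), Mycl (68.1 ± 26.8) and Max (67.2 ± 23.8) overlapped in their ranges, followed with a gap by Mxi1 (25.2 ± 8.43), then Mnt, Mxd1 and Mga, and last Mxd3 (2.22 ± 1.70) and Mycn (1.29 ± 0.32), which overlapped each other (mean ± SD, n = 3). Replicate 2 was the highest of the cKO libraries for each of these 4 leading genes, and within every cKO library of day 9 Myc was above Mxd4 and Mxd4 above Mycl. In WT cells of day 9, Mxd4 (119.9 ± 9.57) stood alone above Myc (80.7 ± 10), Myc overlapped Max (64.4 ± 7.39), and Mycl (38.8 ± 7.47) stood apart below them. Mxi1, Mxd3, Mnt and Mxd1 followed in WT at 24.1 to 16.5 TPM with each overlapping the next, then Mga (2.70 ± 0.53) and Mycn (0.513 ± 0.08). At day 5 the order of group means began with Myc, Mxd4, Mxd3 and Max in both genotypes, each overlapping the next, and ended with Mxd1 and Mycn. Within libraries of day 5, Mxd4 was above Myc in WT replicates 2 and 3 and in cKO replicate 1, where Mxd3 was also above Myc. No level is compared between days, because each day has its own table and day and table cannot be told apart.

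Whether a change differed between the days was tested by subtracting the change at day 5 from the change at day 9, in a fit of all 12 libraries. Of the 10 network genes 2 passed, Mycl and Mxd3, against 7.71% of all 15323 tested genes (2.57% with a positive and 5.14% with a negative difference). For Mycl the difference was 1.42 ± 0.32 on the log2 scale (edgeR's Benjamini-Hochberg adjusted p = 0.0207), with changes of -0.43 at day 5 and 0.996 at day 9. For Mxd3 the difference was -2.99 ± 0.73 (edgeR's Benjamini-Hochberg adjusted p = 0.0299), with changes of -0.05 at day 5 and -3.02 at day 9. Mycn (1.32 ± 0.38, edgeR's adjusted p = 0.0596, Benjamini-Hochberg) and Mga (1.98 ± 1.14, adjusted p = 0.399) did not pass, and the other 6 had adjusted p values of 0.598 to 0.817. Neither call held throughout. That of Mycl ended without any 1 library other than cKO replicates 1 and 2 and WT replicate 1 of day 5, and that of Mxd3 without any 1 library other than cKO replicate 2 of day 5 and cKO replicates 1 and 3 of day 9, while Mga was called without cKO replicate 2 of day 5 (3.49, edgeR's Benjamini-Hochberg adjusted p = 0.0271). Over the 17 alternatives the adjusted p (edgeR or DESeq2) ran from 0.0063 to 0.2 for Mycl, from 0.000202 to 0.196 for Mxd3 and from 0.0271 to 0.76 for Mga.

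Genes known to be raised by MYC moved in both directions at day 9. Of 69 tested, 15 were higher and 17 lower in cKO, and the median log2 fold change was -0.03, against 0.01 over all tested genes and 43.6% of all genes called. At day 5, 0 of the 69 passed. Their summed level at day 9 was 3267 to 3932 CPM in cKO and 4319 to 4745 CPM in WT. Without Ccnd2 and Ldha, left out after their values were seen, the sums of the other 67 overlapped, at 3089 to 3736 CPM in cKO and 3447 to 3659 CPM in WT. The 6 with the smallest adjusted p all fell: the mitotic kinase Plk1 (-3.88 ± 0.13), the G1 cyclin Ccnd2 (-3.14 ± 0.20), the DNA repair glycosylase Ung (-2.84 ± 0.34), the replicative helicase subunit Mcm5 (-2.83 ± 0.18), Cdca7 (-1.93 ± 0.15) and the lactate dehydrogenase Ldha (-1.87 ± 0.14, log2 fold change ± SE). Ccnd2 was at 57.2 ± 11.1 CPM in cKO and 501.9 ± 100.2 CPM in WT.

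The largest rises among the called genes of that list were named after their values were seen. They were Dkc1, which modifies ribosomal RNA (1.49 ± 0.29), the nucleolar GTPase Gnl3 (1.18 ± 0.21) and the transferrin receptor Tfrc (1.08 ± 0.31). The ribosome production genes Wdr43 (0.81 ± 0.18), Nop14 (0.70 ± 0.17) and Ddx21 (0.68 ± 0.14) followed. Ncl was higher by 1.11 ± 0.36 on the log2 scale but did not pass the test. These rises were smaller in size than the 6 falls named above. Dkc1 was at 13.3 CPM in cKO and 4.73 CPM in WT on average, with 6.10, 5.20 and 2.88 CPM in the WT libraries. At day 5 Dkc1, Gnl3, Tfrc, Wdr43, Nop14 and Ddx21 were each highest in cKO replicate 2 and WT replicate 1, the pair that stood apart. Dkc1 was at 68.1 and 73.3 CPM there, against 23.9 to 27.5 CPM in the other libraries of day 5. The part of such library differences in the day 9 rises was not tested. The counts of the list depended on the libraries and on the scale. They were 6 higher and 18 lower without a filter on low counts, 0 and 4 on both deposited TPM scales, 4 and 9 on rescaled TPM, and 10 and 17 on rescaled TPM centred on the median of each library. Without cKO replicates 1 and 3 together they were 9 higher and 7 lower, and without cKO replicate 1 alone 9 higher and 10 lower. Without WT replicate 2 or without cKO replicate 3 the number lower was 11.

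Of 12 tested genes known to be lowered by MYC, 4 rose and 6 fell at day 9, with a median of -0.66, against 21.0% of all genes called higher, 22.6% called lower and a median of 0.01. The cell cycle inhibitor Cdkn1c (1.62 ± 0.14) and Ndrg2 (1.39 ± 0.25) rose, while the p53-responsive inhibitor Cdkn1a (-1.50 ± 0.17), the growth arrest gene Gas1 (-1.59 ± 0.15), Btg1 (-1.03 ± 0.13) and Ndrg4 (-0.81 ± 0.14) fell. Cdkn1c was at 49.1 ± 4.53 CPM in cKO and 16 ± 1.91 CPM in WT. None of the 12 passed at day 5.

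Genes whose products act with MYC or set its stability are read against the 43.6% of all genes called at day 9. Of 13 cofactors 2 rose and 5 fell at day 9 (median -0.30). Among those lower were the helicase Ruvbl2 (-0.46 ± 0.11), Actl6a (-0.38 ± 0.11) and Smarcb1 (-0.36 ± 0.10). The nucleosome remodelling subunit Bptf was higher (1.30 ± 0.31), at 68.3, 43.25 and 60.8 CPM in cKO and 29.7, 25.6 and 14.2 CPM in WT. At day 5 Bptf was at 191.4 CPM in cKO replicate 2, 123.3 CPM in WT replicate 1 and 44.4 to 62.4 CPM in the other libraries. Of 10 genes that act on MYC protein stability 2 rose and 3 fell (median 0.00). Aurka, the mitotic kinase known to shield N-MYC from degradation, was at 3.55 ± 0.86 CPM in cKO and 35.2 ± 3.75 CPM in WT (-3.29 ± 0.19), and Skp2 fell by 0.71 on the log2 scale. Gsk3b, whose kinase marks MYC for degradation, rose (0.74 ± 0.15), as did the deubiquitinase gene Usp7 (0.35 ± 0.11). Both were highest at day 5 in cKO replicate 2 and WT replicate 1. Gsk3b was at 226.7 and 142.3 CPM there, against 59.5 to 102.7 CPM in the other libraries of day 5. The part of such library differences in the day 9 rises was not tested.

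The corepressors that MXD proteins recruit were counted next. Of 12 tested at day 9, 5 fell and 1 rose, against 43.6% of all genes called, with a median of -0.31 against 0.01, and their summed level was 645.4 to 704.3 CPM in cKO and 800.4 to 848 CPM in WT. The histone-binding genes Rbbp7 (-0.72 ± 0.13) and Rbbp4 (-0.51 ± 0.10), the deacetylase gene Hdac1 (-0.38 ± 0.09), Suds3 (-0.37 ± 0.09) and Ing1 (-0.42 ± 0.15) fell. Arid4b rose (3.06 ± 0.71), at 21.98, 4.75 and 28 CPM in cKO and 2.77, 1.94 and 1.69 CPM in WT, and its 2 high libraries were the cKO replicates rich in structural RNA.

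Of 10 tested partners of MGA in PRC1.6, 2 rose and 2 fell at day 9, close to the 21.0% higher and 22.6% lower of all genes, with a median of 0.03. The subunits Pcgf6 (0.70 ± 0.20) and Rybp (0.54 ± 0.17) rose, and L3mbtl2 (-0.54 ± 0.11) and Wdr5 (-0.30 ± 0.10) fell. Within their groups of day 5, Pcgf6 and Rybp were highest in cKO replicate 2 and WT replicate 1. E2f6 did not pass (-0.28 ± 0.14). Of the 3 genes of the MLX arm, a parallel network of the same protein family, Mlxipl, a glucose-responsive factor, rose (1.43 ± 0.44) at 1.24 ± 0.18 CPM in cKO and 0.446 ± 0.19 CPM in WT, while Mlx (-0.30 ± 0.12) and Mlxip (0.27 ± 0.12) did not pass.

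**Figure D4:**
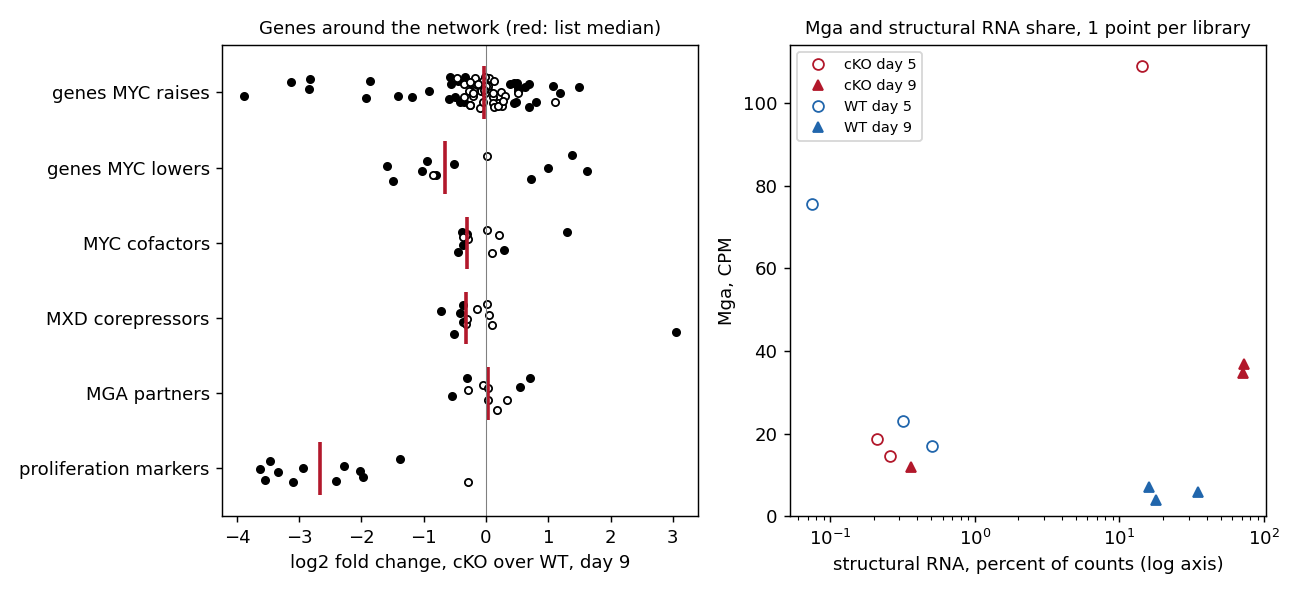
Left, log2 fold change (x axis), cKO over WT, at day 9 of each tested gene of 6 lists, with filled points past the test and red lines at list medians; right, CPM of Mga (y axis from 0) against the percent of counts on structural RNA (log axis), 1 point per library. Genes raised by MYC spread to both sides of 0 with a median of -0.03 while proliferation markers lie at a median of -2.67, and Mga is highest at day 9 in the 2 cKO libraries above 70% structural RNA but still higher in the third cKO library (11.9) than in WT (3.90 to 7.04).

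Beside the network, markers of cell state were counted at day 9, when 21.0% of all genes were called higher and 22.6% lower. Of 12 proliferation markers 11 fell (median -2.67), while Mki67 did not pass (log2 fold change -0.28 ± 0.84). Of 11 E2F and RB family genes 5 fell, among them E2f1 (-2.58 ± 0.26) and E2f2 (-2.29 ± 0.21), while Rb1 rose (1.59 ± 0.40). At day 5 Rb1 was at 63.8 CPM in cKO replicate 2, 46.1 CPM in WT replicate 1 and 14.1 to 19.7 CPM in the other libraries. Of 11 progenitor markers 6 fell and 2 rose. Of 14 tested markers of the oligodendrocyte lineage 10 rose and 4 fell (Olig1, Olig2, Pdgfra and Cspg4). The summed level was 4470 to 5553 CPM in cKO and 3039 to 3498 CPM in WT. Gpr17 alone held 1769 to 2209 CPM of it in cKO and 248.8 to 472.4 CPM in WT, so the gap between the sums rests largely on Gpr17. Of 11 astrocyte markers 9 rose, at a sum of 4366 to 5520 CPM in cKO and 2199 to 2596 CPM in WT. Of 11 neuron markers 8 rose, at a sum of 537 to 603 CPM in cKO and 137.5 to 303.2 CPM in WT. Of the 8 microglia markers none passed the filter on low counts and Aif1 and C1qa were at 0. Of the 8 endothelial and mural markers 3 were tested, with Cdh5 at 0. Kdr (0.76 ± 0.25) and Pdgfrb (1.96 ± 0.40) rose and Acta2 (-1.37 ± 0.47) fell, with group means of at most 2.79 CPM. The part of these cell types in the changes of the network genes was not tested. At day 5, 0 members of any of these lists passed.

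The genes whose pattern came closest to a network gene were found by the root mean square difference of log2 CPM over the 12 libraries, each gene centred within its day, among 9113 or 9114 candidates. For Mxd3 these were Spc24 (0.396), Aurkb (0.526), Cdk1 (0.549), Cks2 (0.556) and Ier3 (0.56), against a median of 1.45 over all candidates. Spc24, Aurkb, Cdk1 and Cks2 are genes of mitosis, at -3.58, -3.34, -3.47 and -3.29 at day 9. For Mycn they were Dapk1 (0.209), Elmo1 (0.212), Pdgfa (0.218), Sorl1 (0.221) and Abcc1 (0.223), against a median of 0.662. For Mxd4 they were Lrrn2 (0.038), Vps11, Gstz1 and Pcdhgc3, and for Mycl, added after its values were seen, Spns2 (0.0926), the glial gene S100b (0.0968), Sh3bp4, Fbxo7 and Capn5. For Myc they were Zfp12 (0.0446), Ttl, Ddah1, Tfcp2 and Parp1, and for Mxi1 Klhl5 (0.0561), Fam120b, Mfap3, Dgka and Specc1l.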

How the data were processed

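RNA was measured in 12 libraries of sorted cells in 4 groups of 3. The authors deposited expected (estimated) counts per gene and, separately, TPM, in which counts are scaled for transcript length and library total. The submitters' processing notes name RSEM, Bowtie2 and the build mm10, and the columns are RSEM gene results per the file headers. No tool version, annotation, trimming step or strand setting is given in the sources used here. Of the features, 42425 (97.96%) at day 5 and 41839 (97.75%) at day 9 matched a gene symbol in the reference names, and 15 features of day 9 held values of more than 2 decimals in the deposited expected counts. The number of expected counts per gene and library sets the precision of each value.

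Expected counts were rounded and tested with edgeR 4.0.16 in R 4.3.3 (filterByExpr by group, TMM, robust quasi-likelihood fit and test, Benjamini-Hochberg adjustment over all tested genes, threshold 0.05), each day alone on its 6 libraries, and the day difference on all 12 libraries over 41592 symbols present exactly once in each table. Standard errors follow from the F statistic, as the size of the log2 change over the root of F. TPM was used, after 12 structural RNA features were left out and the rest rescaled, for levels and for ratios within a library, and in alternative tests with limma 3.58.1 at pseudocounts of 1 and 0.1. A pseudocount shrinks the fold changes of low genes, more so at 1 than at 0.1. Other alternatives were DESeq2 1.42.0, RLE scaling, no filter, the replicate number as a block, structural RNA features left out, and libraries left out. Between replicate libraries the chi-square over its degrees of freedom was at least 4.91, so replicates differed by more than sampling noise. Promoters and starts are from RefSeq (GRCm38.p6) and gene positions from GENCODE (GRCm38).

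The network genes and the gene lists were chosen with earlier results of these data known. From each list the text names up to 6 tested genes with the smallest adjusted p at day 9, and for Myc, Mycn, Mxd3, Mxd4 and Mxi1 the 5 most alike genes with a mean of at least 5 CPM at each day. A few genes that this rule took are left out of the text and not reported here.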

Additional observations from a re-analysis of the deposited data

Results flagged for a closer look

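The change of Mycl differed between the days: the day 9 change minus the day 5 change was 1.42 ± 0.32 on the log2 scale (edgeR with Benjamini-Hochberg adjustment, adjusted p = 0.0207). The call ended in 10 of 17 alternatives: with the replicate block and without any 1 of 9 libraries. All 3 cKO libraries were above all 3 WT libraries at day 9, and the groups overlapped at day 5.

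The change of Mxd3 differed between the days in the other direction, by -2.99 ± 0.73 on the log2 scale (edgeR with Benjamini-Hochberg adjustment, adjusted p = 0.0299). The call ended in 10 of 17 alternatives here too, with the replicate block and without any 1 of 9 libraries. All 3 cKO libraries were below all 3 WT libraries at day 9, and the groups overlapped at day 5.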

How the results depend on the processing

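At day 5 the network genes called stayed at 0 under every alternative run. All genes called at day 5 (1 as reported) were 8 with DESeq2, 0 without a filter, 0 with the replicate block, 3 with limma on log2(TPM + 1), 3 on log2(TPM + 0.1), 2 on rescaled TPM, 19 without cKO replicate 2 and WT replicate 1 (the pair that stood apart, an alternative chosen after seeing the data, like median-centred TPM at day 9), and 0 to 0 when any 1 library was left out. Uncalled log2 fold changes of day 5 that crossed 0 were those of Myc (-0.00042 with DESeq2, -0.0473 without a filter, -0.119 and -0.12 on the TPM scales, -0.04996 rescaled, -0.0678 to 0.0754 with 1 library left out), Max (-0.0044 without a filter, -0.0856 and -0.0873 on the TPM scales, -0.0174 rescaled, -0.0555 to 0.17), Mxd3 (-0.39 to 0.24), Mxd4 (-0.35 to 0.0071), Mxi1 (0.0629 without the pair, -0.14 to 0.14) and Mga (-0.0335 with the block, -0.15 and -0.18 on the TPM scales, -0.0862 rescaled, -0.26 without the pair, -1.23 to 1.26).

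At day 9 the network genes called (5 as reported) were 4 to 5 with 1 library left out, 1 on log2(TPM + 1), 1 on log2(TPM + 0.1), 3 on rescaled TPM, and 3 without cKO replicates 1 and 3 together. All genes called (6378) were 4063 to 7507 with 1 library left out, 510 and 623 on the TPM scales, 4194 rescaled and 3344 without those replicates. On log2(TPM + 1) and log2(TPM + 0.1), where the median of all genes moved down, the log2 difference was -0.80 and -0.83 for Myc (-0.0255 rescaled), -0.0295 and -0.0445 for Mycl, -0.76 and -0.79 for Max, -0.69 and -0.77 for Mxi1, and -0.71 and -0.82 for Mnt (-0.0197 rescaled, -0.0057 without cKO replicates 1 and 3). Mxd1 ranged from -0.11 to 0.0519 with 1 library left out. Mxd3 kept its call in all of these. The MYC to antagonist log2 ratio of day 9 was 0.788 without Mxd3 and 0.883 to 0.986 with 1 library left out.

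For the day difference, the network genes called (2) were 0 with the replicate block and 0 to 3 with 1 library left out, and all genes called (1181) were 322 with the block and 756 to 2410 with 1 library left out, highest without cKO replicate 2 of day 5. Libraries that share a number did not deviate together throughout. Correlations were -0.721, -0.498 and 0.534 at day 5 and -0.001, -0.2 and -0.063 at day 9, positive only for replicate 3 of day 5. The main fits did not pair libraries by number. These correlations cannot show whether libraries of the same number shared a culture or animal. Beyond the scaling and the libraries left out, the cause of these changes was not tested. Depth limits Mycn and Mxd3 most, which rest on at most 54.4 expected counts in any cKO library of day 9.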
